A study of Mus musculus with 4 samples.

Results

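Loops longer than 2 Mb in the mouse uterus are the subject here: autosomal Hi-C loops whose second anchor starts more than 2000000 bases after the first. They were picked by position alone, and 667 such entries stood among 58047 autosomal loops in the lists of 4 libraries. Hi-C joins and sequences pieces of DNA that lie close together in the nucleus, and a loop is a pair of genomic bins, its anchors, that were called as touching more than their surroundings. All libraries came from whole uteri of ovariectomised C57BL/6J females over 10 weeks old, frozen 1 h after 1 injection. The females of every group had a rest of 10 to 14 days. The wild-type vehicle group (2 libraries, replicates 2 and 3) received 100 ul of saline into the abdominal cavity. The wild-type progesterone group (1 library, replicate 2) received 1 mg of the hormone subcutaneously, dissolved in sesame oil (100 ul), so carrier and route differ as well as the hormone. The knockout group (1 library, replicate 1) carried the Ex3aERKO genotype, which lacks estrogen receptor alpha (ERα), the product of Esr1, and received saline. Whether a library held 1 animal or several was not given in the sources used here, and whole uterus mixes stroma, muscle, epithelium and vessels. A single library stood for progesterone and for the knockout, so no test was made between conditions. The lists hold positions without contact counts, so depth and loop strength are unknown and a loop missing from a list may still exist in that tissue.

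Most chromatin loops are formed when cohesin extrudes DNA until it meets CTCF bound at convergent sites, and such loops usually stay within a domain of less than a few megabases. Contacts over longer distances are known between regions of like chromatin, such as genes of developmental regulators held by Polycomb group proteins, active gene-dense regions, and clusters of histone, tRNA or ribosomal RNA genes. Repeated or misplaced sequence in an assembly can also appear as a long contact.

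The promoters below lie inside anchors on which the results turn, and they show the gene ends that long loops join. Each is the 250 bases before the transcription start, written 5′ to 3′ along the gene's strand, from RefSeq on GRCm38.p6 (the assembly behind mm10), with every CpG dinucleotide in capitals. Dlx2 and Hoxd13 are the ends of the developmental link called in most libraries.
Dlx2 (chr2:71546755-71547004, minus strand): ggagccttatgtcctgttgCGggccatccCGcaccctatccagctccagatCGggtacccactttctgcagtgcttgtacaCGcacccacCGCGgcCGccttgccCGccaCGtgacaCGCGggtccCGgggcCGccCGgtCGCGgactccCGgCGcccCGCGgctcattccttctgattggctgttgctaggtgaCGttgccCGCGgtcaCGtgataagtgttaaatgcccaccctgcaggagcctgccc
Hoxd13 (chr2:74667975-74668224, plus strand): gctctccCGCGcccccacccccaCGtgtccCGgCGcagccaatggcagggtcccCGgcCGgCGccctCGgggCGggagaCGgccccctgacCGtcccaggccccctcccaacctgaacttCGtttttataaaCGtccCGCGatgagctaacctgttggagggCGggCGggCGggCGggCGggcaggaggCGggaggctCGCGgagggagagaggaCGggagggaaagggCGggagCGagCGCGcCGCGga
Igf2bp3 and Hoxa13, and Gbe1 and Cct8, are the ends of loops called in all 4 libraries.
Igf2bp3 (chr6:49214955-49215204, minus strand): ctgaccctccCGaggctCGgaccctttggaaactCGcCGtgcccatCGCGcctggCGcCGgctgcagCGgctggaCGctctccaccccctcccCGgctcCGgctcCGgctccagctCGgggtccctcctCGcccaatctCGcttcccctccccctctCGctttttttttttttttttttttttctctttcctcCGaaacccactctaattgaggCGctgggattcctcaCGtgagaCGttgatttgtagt
Hoxa13 (chr6:52260881-52261130, minus strand): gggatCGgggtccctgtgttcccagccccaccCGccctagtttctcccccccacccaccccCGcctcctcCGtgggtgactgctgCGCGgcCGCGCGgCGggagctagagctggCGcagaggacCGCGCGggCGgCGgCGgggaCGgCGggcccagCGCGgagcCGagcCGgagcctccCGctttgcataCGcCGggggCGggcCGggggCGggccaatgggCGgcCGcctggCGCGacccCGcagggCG
Gbe1 (chr16:70313699-70313948, plus strand): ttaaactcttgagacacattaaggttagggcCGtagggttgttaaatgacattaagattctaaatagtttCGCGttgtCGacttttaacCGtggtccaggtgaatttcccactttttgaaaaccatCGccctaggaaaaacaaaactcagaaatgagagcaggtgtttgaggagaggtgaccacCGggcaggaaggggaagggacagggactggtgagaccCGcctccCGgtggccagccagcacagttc
Cct8 (chr16:87495870-87496119, minus strand): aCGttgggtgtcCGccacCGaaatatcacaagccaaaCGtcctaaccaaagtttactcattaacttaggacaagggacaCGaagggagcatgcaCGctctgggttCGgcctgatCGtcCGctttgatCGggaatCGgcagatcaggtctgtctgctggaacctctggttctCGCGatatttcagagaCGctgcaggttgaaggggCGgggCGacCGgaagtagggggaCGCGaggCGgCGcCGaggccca
Hand2 and Sall1 are the ends of the longest link between developmental regulators, and Hjurp is the gene whose anchor joined the most long loops.
Hand2 (chr8:57320733-57320982, plus strand): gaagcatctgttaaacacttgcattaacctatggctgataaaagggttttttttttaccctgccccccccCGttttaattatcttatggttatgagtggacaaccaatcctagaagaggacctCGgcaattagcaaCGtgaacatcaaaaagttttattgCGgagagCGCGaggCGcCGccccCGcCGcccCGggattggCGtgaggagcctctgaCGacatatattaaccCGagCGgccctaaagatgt
Sall1 (chr8:89044163-89044412, minus strand): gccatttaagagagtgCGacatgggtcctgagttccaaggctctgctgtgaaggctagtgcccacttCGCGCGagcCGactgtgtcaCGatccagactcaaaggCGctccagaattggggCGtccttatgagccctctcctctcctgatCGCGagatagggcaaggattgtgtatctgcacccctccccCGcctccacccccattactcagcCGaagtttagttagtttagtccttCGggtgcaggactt
Hjurp (chr1:88277580-88277829, minus strand): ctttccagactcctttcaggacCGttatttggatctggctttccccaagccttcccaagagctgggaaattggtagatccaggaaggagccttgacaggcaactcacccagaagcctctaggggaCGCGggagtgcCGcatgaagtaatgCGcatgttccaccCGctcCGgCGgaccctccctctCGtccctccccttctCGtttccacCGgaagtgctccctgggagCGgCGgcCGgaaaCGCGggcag
These promoters held 24 CpG dinucleotides at Dlx2, 31 at Hoxd13, 21 at Igf2bp3, 35 at Hoxa13, 9 at Gbe1, 22 at Cct8, 15 at Hand2, 13 at Sall1 and 16 at Hjurp, where the median over 16457 autosomal promoters was 10. All but Gbe1 were thus above that median. Genes with ends at both anchors of loops of 2 Mb or less had library medians of 14 to 16. A count above 10 therefore does not set these promoters apart from those of shorter loops.

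Long loops were a small part of each list, and the knockout list held the most. They numbered 181 of 16062 autosomal loops (1.13%, 0.969 to 1.30) for vehicle replicate 2, 67 of 9200 (0.728%, 0.565 to 0.924) for vehicle replicate 3, 129 of 11497 (1.12%, 0.938 to 1.33) for progesterone and 290 of 21288 for the knockout (1.36%, 1.21 to 1.53). Ranges after shares are exact (Clopper-Pearson) 95% intervals. They cover counting error only, and loops that share an anchor are not independent. The share in vehicle replicate 3 lay below the other libraries, that of its own replicate included, so the vehicle replicates differed from each other by more than vehicle replicate 2 differed from progesterone. The median length of the long loops was 2.71, 2.60, 2.64 and 3.005 Mb in vehicle replicate 2, vehicle replicate 3, progesterone and the knockout, an order kept in all lists of 4 values below. The nearest loops inside the threshold measured 2010 to 2050 kb and the nearest outside 1975 to 2000 kb, with no gap between them.

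**Figure D1:**
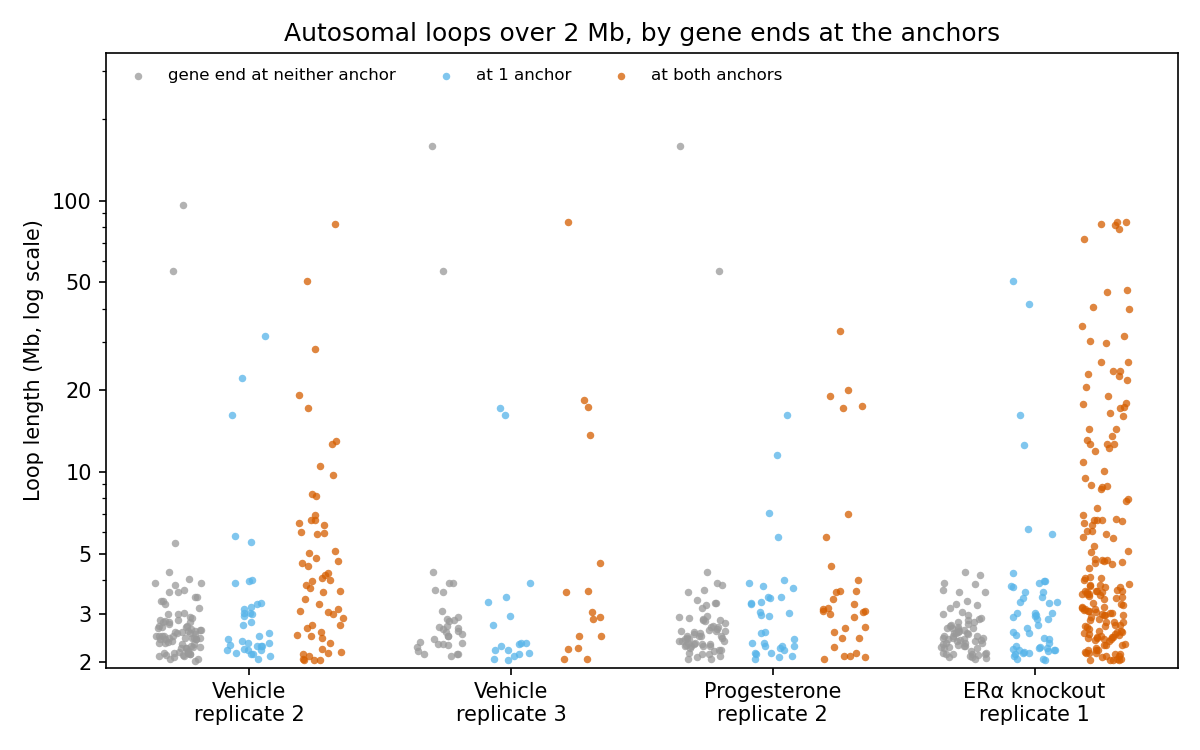
Length of every autosomal loop over 2 Mb (points; log axis in Mb) in each of the 4 libraries, by whether a protein-coding gene starts or ends in neither, 1 or both anchors. In the knockout 40 of the 44 loops over 10 Mb have gene ends in both anchors, while most loops of 2 to 3 Mb in the wild-type libraries do not.

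A larger share of long loops than of other loops had wide anchors in each library. Anchors in the lists are 5, 10 or 25 kb wide, and 51.9, 76.1, 65.9 and 63.1% of long loops had 25 kb anchors, compared with 12.5, 22.5, 18.0 and 9.12% of loops of 2 Mb or less. A wider anchor holds a gene end more easily. Values within 1 anchor width therefore stand beside the pooled ones for each library's gene-to-gene share and its share found in any other library. Other shares, among them those by length band, by number of libraries, by repeat and for listed genes, were not split by anchor width.

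In every library a protein-coding gene started or ended inside both anchors of long loops more often than of shorter loops. Such gene-to-gene loops numbered 58 (32.0%, 25.3 to 39.4) and 16 (23.9%, 14.3 to 35.9) for the vehicle replicates, 32 (24.8%, 17.6 to 33.2) for progesterone and 168 for the knockout (57.9%, 52.0 to 63.7). Over all autosomal loops of the same lists the share was 13.3, 12.2, 13.1 and 18.5%, and over loops of 2 Mb or less 13.1, 12.1, 12.9 and 18.0%. The excess averaged 20.6 percentage points (SD 13.3, n = 4 libraries), was positive in 4 of 4 libraries, and gave p = 0.13 in an exact two-sided sign-flip permutation test, the smallest p that 4 libraries allow. The excess depended on how a gene was placed: with any overlap of a gene body the mean difference was -2.77 points (exact permutation p = 0.875), without loops of 25 kb anchors it was 1.88 points (exact permutation p = 0.875), within 10 kb of a gene end it was 10.9 points, and at a length threshold of 3 Mb it was 38.4 points. Without the knockout it was 14.2 points (exact permutation p = 0.25, the smallest for 3 libraries).

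Within the 25 kb anchors the gene-to-gene share was 51.1, 31.4, 32.9 and 71.6% for long loops and 25.6, 22.0, 24.5 and 30.5% for shorter ones, a mean difference of 21.1 points. Within the 10 kb anchors it was 11.9, 0, 10.0 and 38% for long loops and 13.3, 12.5, 12 and 17.1% for shorter ones. Within the 5 kb anchors it was 10.0, 0, 0 and 13.3% of only 20, 3, 4 and 15 long loops. For shorter ones it was 10.4, 6.62, 9.39 and 16.6%. The knockout was thus higher for long loops at 10 and 25 kb, whereas the wild-type libraries were higher at 25 kb only. At 25 kb the intervals of vehicle replicate 3 and progesterone overlapped those of shorter loops. Loops with no gene end at either anchor made up 47.5, 49.3, 48.8 and 24.1% of long loops, with 52, 52.8, 52.5 and 47.8% over all autosomal loops.

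**Figure D2:**
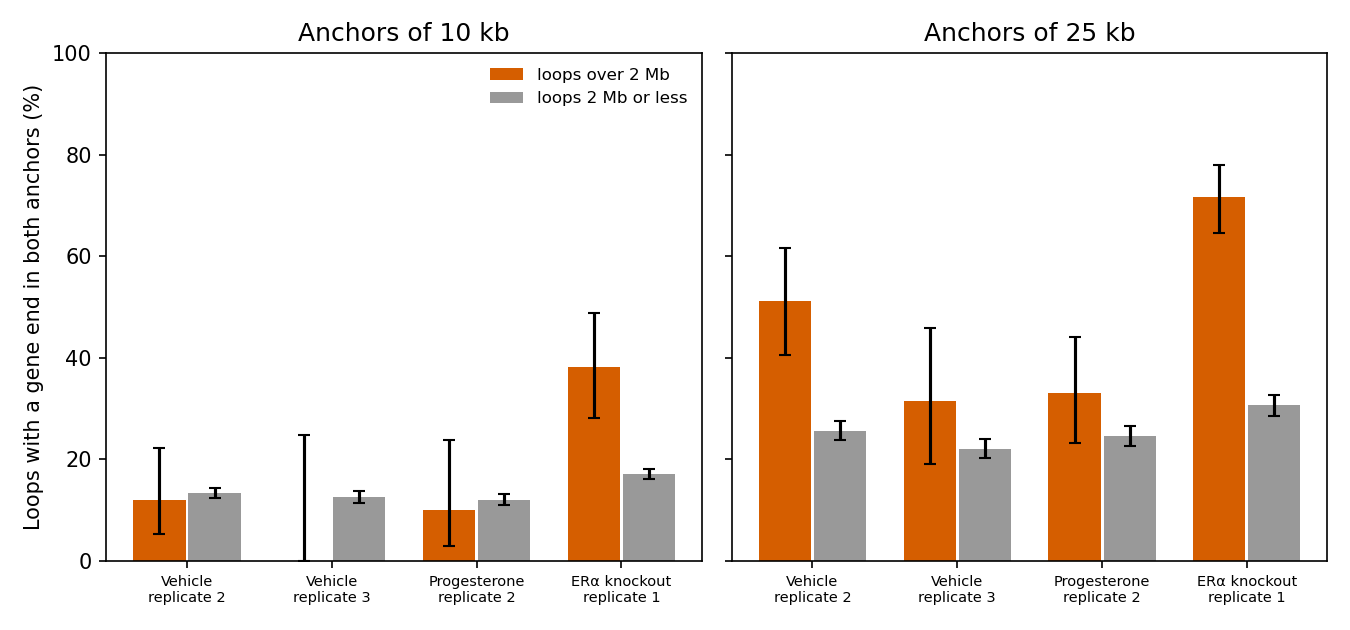
Share (%) of loops with a protein-coding gene start or end in both anchors, for loops over 2 Mb and of 2 Mb or less, split by anchors of 10 kb and 25 kb; error bars are exact binomial 95% intervals. With 25 kb anchors long loops stand higher in all 4 libraries (71.6 and 30.5% in the knockout), and with 10 kb anchors in the knockout only.

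The gene-to-gene share was higher among loops over 3 Mb than among those of 2 to 3 Mb in each library. In the knockout it was 39.3% of 145 loops of 2 to 3 Mb, 62.7% of 75 loops of 3 to 5 Mb, 92.3% of 26 loops of 5 to 10 Mb and 90.9% of 44 loops over 10 Mb. In vehicle replicate 2 the same bands gave 19 of 110, 18 of 42, 13 of 16 and 8 of 13 loops. After progesterone they gave 13 of 82, 12 of 34, 2 of 4 and 5 of 9, and in vehicle replicate 3 they gave 8 of 46, 4 of 13, none of 0 and 4 of 8. The bands beyond 5 Mb thus rest on few loops in each library other than the knockout.

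In each library a smaller share of long loops than of all loops was found again in another library. A loop counted as found again when both of its anchors, widened by 10 kb on either side, met the anchors of 1 loop in another list. By that rule 128, 56, 102 and 118 long loops (70.7, 83.6, 79.1 and 40.7%) were in at least 1 other list, where all autosomal loops of those lists gave 83.1, 94.2, 91.6 and 63.2%. At 25 kb anchors alone the shares were 59.6, 80.4, 71.8 and 29.5% for long loops and 65.5, 91.2, 83.7 and 52.7% for all. Of the vehicle replicate 3 long loops, 49 (73.1%) were in vehicle replicate 2, 48 (71.6%) among progesterone loops and 46 (68.7%) among knockout loops, against 85.8, 78.4 and 85% of all its loops. The reverse share of vehicle replicate 2 long loops in vehicle replicate 3 was 27.1%, against 49.3% of all its loops, and that in the knockout was 56.4%, against 74.2%. Progesterone long loops were in vehicle replicate 2 in 91 cases (70.5%; 81.2% of all) and in the knockout in 79 cases (61.2%; 81.1% of all). Of the knockout long loops, 102 (35.2%) were in vehicle replicate 2, 46 (15.9%) in vehicle replicate 3 and 79 (27.2%) in the progesterone list, against 56.1, 36.9 and 43.9% of all knockout loops.

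Long loops of a single library had gene ends at both anchors more often than long loops that recurred, and their median length was greater. Joined over the libraries, the entries gave 406 distinct loops, of which 263 were long in 1 library, 63 in 2, 42 in 3 and 38 in 4. A gene end lay at both anchors of 67.3, 39.7, 28.6 and 15.8% of them, respectively (177, 25, 12 and 6 loops), taking the bins of any library that listed them. Their median lengths were 3.425, 2.75, 2.695 and 2.405 Mb, and 86, 10, 2 and 2 of them exceeded 5 Mb. The single-library loops were 172 of the knockout, 53 of vehicle replicate 2, 27 of progesterone and 11 of vehicle replicate 3.

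The same split stood inside each library. Among long loops found in no other list, 49.1, 54.5, 37.0 and 78.5% were gene-to-gene, against 25, 17.9, 21.6 and 28.0% of those found elsewhere. Without the loops found in no other list, the knockout share of 57.9% therefore became 28.0%, and the 32.0% of vehicle replicate 2 became 25%. Of the 118 knockout loops kept, 102 matched loops of vehicle replicate 2. Both shares thus rest largely on the same loops, and their nearness does not compare the libraries. Loops of 2 Mb or less showed the same direction with smaller gaps: 15.9, 17.3, 16.1 and 24.5% in no other list, and 12.5, 11.8, 12.6 and 14.2% in another. Anchor width differed as well. Of the long loops found elsewhere, 56 of 128, 41 of 56, 61 of 102 and 54 of 118 had 25 kb anchors. Over all long loops these were 94 of 181, 51 of 67, 85 of 129 and 183 of 290. The part of anchor width, depth, loop strength or list length in this split was not tested.

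**Figure D3:**
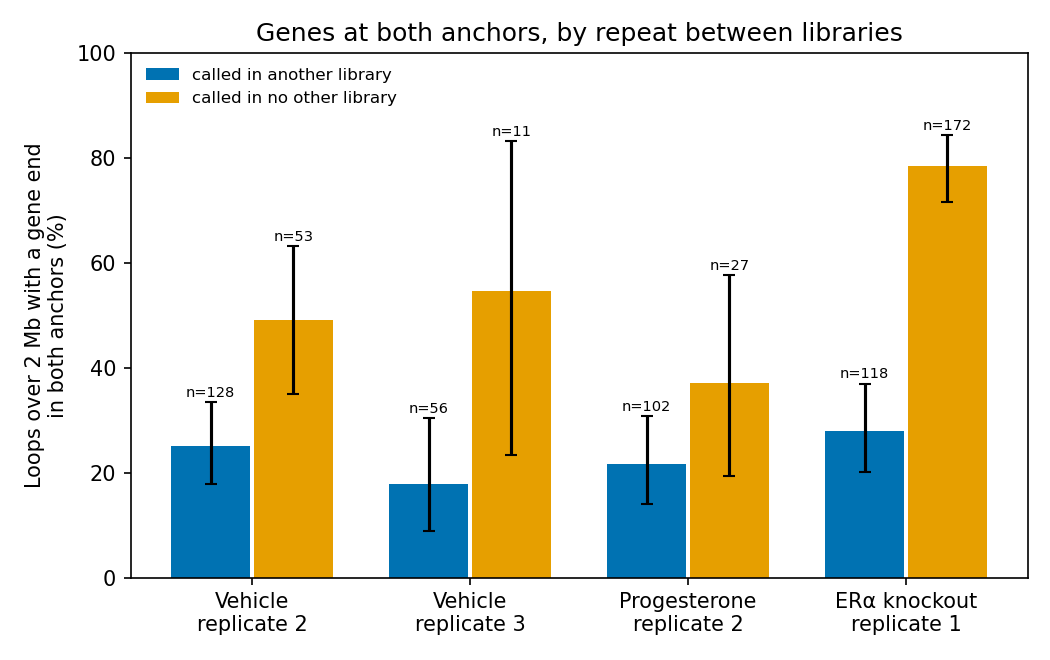
Share (%) of loops over 2 Mb with gene ends in both anchors, for loops also called in another library and loops called in no other library, per library, with the number of loops above each bar; error bars are exact binomial 95% intervals. The bars for loops of no other library are higher in all 4, at 78.5 and 28.0% in the knockout.

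The 38 loops called in all 4 libraries were mostly between 2 and 5 Mb and mostly away from gene ends: 21 had no gene end at either anchor and 11 had one at a single anchor. The other 6 had gene ends at both anchors in the bins of at least 1 library. The longest of these joined chr16:70300001-70325000 at Gbe1, the glycogen branching enzyme, to chr16:87475001-87500000 at Cct8, a subunit of the cytosolic chaperonin, and Usp16, a deubiquitinase of histone H2A, in vehicle replicate 2 and progesterone. The smaller bins of the knockout held Gbe1 and Cct8 alone. The length was 17.175 Mb for both vehicle replicate 2 and progesterone, 17.2 Mb for vehicle replicate 3 and 17.18 Mb for the knockout. The second anchor of the vehicle replicate 3 entry was the next bin and held no gene end, with Cct8 within 10 kb of it. The Igf2bp3 to Hoxa13 loop, between the gene of an RNA-binding protein and the posterior end of the Hoxa cluster, used the same 25 kb bins and the same length of 3.05 Mb in every library.

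In the remaining 4 loops the genes depended on the library's bins. Tafa2 was joined to Atp23 over 3.6 to 3.605 Mb in the wild-type libraries, and the knockout bins held Tafa2 only. Steap4, a metalloreductase gene, was joined to Gm46900 over 2.225 Mb in the bins of vehicle replicate 3 only. Ctso, a cathepsin gene, was joined to Gask1b over 2.05 Mb in both vehicle libraries and the knockout, and to Tmem144 over 2.075 Mb after progesterone. Grid1, a glutamate receptor family gene, was joined to Ccser2 over 2.05 Mb in the bins of vehicle replicate 3 only. In loops of all 4 libraries with a gene end at a single anchor, the genes included Slitrk3, Ntrk3, Nxph1 and Cntn5, best known from neurons. The others there were Hapln1, a hyaluronan link protein gene, Hdac2, Usp6nl, Steap4, Efnb2, Arglu1, Stap2 and Mpnd. An anchor at chr17:39840001-39850000, where RefSeq places a ribosomal RNA pseudogene, joined Stap2 and Mpnd at 16.16 Mb and a bin without a gene end at 3.61 Mb in all 4 libraries. Whether reads of repeated sequence formed these 2 loops was not tested.

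Beyond 10 Mb only 8 distinct loops were called in more than 1 library. Besides Gbe1 to Cct8 and the chromosome 17 loop, Rb1cc1, an autophagy gene, was joined to Hjurp over 82.06 Mb in vehicle replicate 2 and the knockout, in the same 10 kb bins. Hand2 was joined to Sall1 over 31.725 Mb in the knockout, and vehicle replicate 2 listed the loop at 31.7 Mb from the bin next to Hand2. The longest loop of each wild-type list had no protein-coding gene end at either anchor. It ran 159.17 and 159.18 Mb along chromosome 2 (vehicle replicate 3 and progesterone) and 96.42 Mb along chromosome 13 (vehicle replicate 2 only). A loop of 54.87 Mb along chromosome 11, also without such a gene end, was in all 3 wild-type libraries. None of these was listed in the knockout, whose longest loop, 83.49 Mb, joined Mrpl15 to Hjurp. Of the 44 knockout loops over 10 Mb, 38 were in no other list, and 35 of those 38 were gene-to-gene. Of these 35, 31 had 25 kb anchors.

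Links between developmental regulators were few, and 1 of them recurred in 3 libraries. The list held 518 genes of transcription factor and signal ligand families that pattern the embryo. Both anchors held such a gene in 2 long loops of vehicle replicate 2 (1.10%), 2 of progesterone (1.55%) and 4 of the knockout (1.38%), and in none of vehicle replicate 3 (0 of 67, whose interval reaches 5.36%). Over all autosomal loops the shares were 0.0747, 0.0326, 0.087 and 0.0799%. The mean difference from shorter loops was 0.95 points (SD 0.681, n = 4 libraries), higher in 3 of 4, with p = 0.25 in the exact two-sided sign-flip permutation test. All these links had 25 kb anchors, and the part of anchor width in the difference from shorter loops was not tested.

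The recurrent link joined chr2:71525001-71550000, which holds Dlx1 and Dlx2, homeobox genes of forebrain and face, to chr2:74650001-74675000, which holds Evx2 and Hoxd13, homeobox genes at the posterior end of the Hoxd cluster. It had the same bins and the same length of 3.125 Mb in vehicle replicate 2, progesterone and the knockout, and vehicle replicate 3, the shortest list, lacked it. Hand2, a stromal factor induced by progesterone in the uterus, was joined to Sall1, a zinc finger gene of kidney development, from chr8:57300001-57325000 to chr8:89025001-89050000 in the knockout. Vehicle replicate 2 listed that loop from the next bin, chr8:57325001-57350000, which holds long noncoding RNA genes and has Hand2 within 10 kb, and so did not count as a link.

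The remaining links were called in 1 library each. The knockout joined Hoxd9 to Hoxd12 with Wt1, a zinc finger gene of the urogenital ridge, over 30.45 Mb, and Wt1 with Meis2, a partner of Hox proteins, over 10.925 Mb, so that Wt1 stood in a pair of links. Progesterone joined Hmx2 to Ebf3 over 5.75 Mb, and vehicle replicate 2 joined Sox21 to Zic2 over 4.25 Mb. A developmental regulator at either anchor was found in 5, 1, 3 and 14 long loops (2.76, 1.49, 2.33 and 4.83%), with 2.6, 2.62, 2.5 and 2.41% over all autosomal loops. That share was higher in long than in shorter loops in 2 of 4 libraries (mean difference 0.33 points, SD 1.52, exact permutation p = 0.875). All these genes were transcription factors. None of 94 autosomal ligand genes lay at a long anchor in any library, and 39 to 51 of them lay at an anchor of some loop. Over all autosomal genes 0.929, 0.315, 0.639 and 2.26% lay at a long anchor. With so low a share, 94 genes are too few to read a difference between ligands and factors.

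Links between housekeeping genes were as rare and did not recur. The list held 787 genes of ribosome, proteasome, spliceosome, respiratory chain and transport families. Each library had 1 such long loop: Ndufaf5, a complex I assembly gene, to Snrpb2, a spliceosome gene, over 2.9 Mb in vehicle replicate 2; Med29, a Mediator gene, to Rpl18, a ribosomal protein gene, over 17.325 Mb in vehicle replicate 3; Ube2m to U2af1l4 over 17.525 Mb after progesterone; and Rab5a to Ndufv2 over 12.625 Mb in the knockout. These were 0.552, 1.49, 0.775 and 0.345% of long loops, with 0.181, 0.0978, 0.148 and 0.225% over all autosomal loops (mean difference from shorter loops 0.63 points, SD 0.555, higher in 4 of 4, exact two-sided permutation p = 0.13, again the smallest possible). With 1 loop in each library these shares are imprecise, at 0.00873 to 1.91% for the knockout. None of the 4 links was called in a second library. All 4 had 25 kb anchors, and the part of anchor width in these shares was not tested.

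Single housekeeping genes stood at more knockout loops. A housekeeping gene lay at either anchor of 9, 2, 8 and 37 long loops (4.97, 2.99, 6.2 and 12.8%), with 3.26, 3.25, 3.33 and 4.5% over all autosomal loops. The mean difference from shorter loops was 3.18 points (SD 3.70, higher in 3 of 4 libraries, exact two-sided permutation p = 0.25). The knockout interval was 9.14 to 17.2%. Cct8, Med17, Mrpl32, Ndufa5 and Psma2 were at long anchors in vehicle replicate 2, progesterone and the knockout. Of 765 autosomal list genes, 35 lay at long anchors in the knockout (4.58%) and 3 to 11 in the other libraries. All autosomal genes gave 2.26% in the knockout and 0.929, 0.315 and 0.639% in the other libraries.

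Clusters of tRNA and histone genes on chromosome 13 formed a set of long loops. The bin chr13:21160001-21165000, with 2 tRNA genes in RefSeq, was joined to chr13:23515001-23520000, with 5 tRNA genes, and to chr13:23430001-23435000, with 2, in vehicle replicate 2, and loops that overlapped them were called in all 4 libraries. Both anchors held tRNA genes in 6, 2, 3 and 5 long loops (3.31, 2.99, 2.33 and 1.72%), while 0.183, 0.186, 0.185 and 0.148% of shorter loops did. All but 3 of these lay between the same pair of regions on chromosome 13. Histone genes were joined to histone genes in 1 long loop of vehicle replicate 2 (H2bc14 to H3c3 and H2bc3, 2.02 Mb) and 1 after progesterone (H2bc13, H2ac13 and H3c10 to H2ac4, H3c2 and H4c2, 2.04 Mb). In the knockout a loop of 2.05 Mb between neighbouring bins ended at H4c1, H3c1 and H1f1 and had no histone gene end at its first anchor. Members of tRNA and histone families are near copies of each other, and the part of reads placed at the wrong copy was not tested.

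Some long loops shared an anchor. Anchors of long loops that overlapped by 1 base were joined, and 39 of 313 joined anchors (12.5%) of vehicle replicate 2, 10 of 124 (8.06%) of vehicle replicate 3, 31 of 220 (14.1%) of progesterone and 81 of 461 (17.6%) of the knockout were used by at least 2 long loops. Among the joined anchors of all autosomal loops 39.6, 29.4, 33.4 and 44.8% were shared, and those sets hold many more loops that can meet. The most long loops at 1 anchor were 4, 2, 3 and 7. Shared anchors held a gene end in 38.5, 40, 35.5 and 74.1% of cases and single anchors in 43.8, 36.8, 39.2 and 64.5%, so only the knockout had genes at most of either kind.

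The anchor with the most long loops was at Hjurp, which encodes the chaperone of the centromeric histone CENP-A. In the knockout chr1:88270001-88300000 was joined to 7 places on the same chromosome: Mrpl15 at 83.49 Mb, Tcea1 at 83.42 Mb, Rb1cc1 at 82.06 Mb, Pcmtd1 at 81.2 Mb, Rrs1 and Adhfe1 at 78.75 Mb, Terf1 at 72.475 Mb and a bin without a gene end at 41.425 Mb. Hjurp had 1 long loop in each wild-type library, to Rb1cc1 in vehicle replicate 2, to Lypla1 over 83.45 Mb in vehicle replicate 3 and to Fam174a over 7.025 Mb after progesterone. Lypla1 lies between Mrpl15 and Tcea1, so both vehicle libraries and the knockout joined Hjurp to the same end of chromosome 1. The knockout loops at Hjurp belonged to a set of 14 loops linked through shared anchors, with Rb1cc1 (3 loops) and Cops5 and Cspp1 (4 loops) among its other joints, and the largest such set held 5, 2 and 4 loops in the other libraries.

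Other shared gene anchors of the knockout were at Ripk2, a kinase gene of innate immunity (5 loops of 3.41 to 12.225 Mb), at Marf1 and Nde1 (5 loops of 2.15 to 8.925 Mb) and at Fbxo5 and Mtrf1l (5 loops of 2.15 to 23.55 Mb). All partners of these 3 anchors held gene ends. The Ripk2 loops to Asph at 6.5 Mb and to Cpne3 and Rmdn1 at 3.41 Mb were in vehicle replicate 2 as well (the second also after progesterone), and the loop of Marf1 to Dexi and Clec16a was in vehicle replicate 2 and progesterone. The Fbxo5 anchor was shared in the knockout alone, as were the anchors at Hjurp, at Marf1 and Nde1, and many others of that library. Fbxo5 lies 793.525 kb beyond the end of Esr1, the gene altered in these animals, so an effect of the altered locus and loss of ERα cannot be told apart there.

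**Figure D4:**
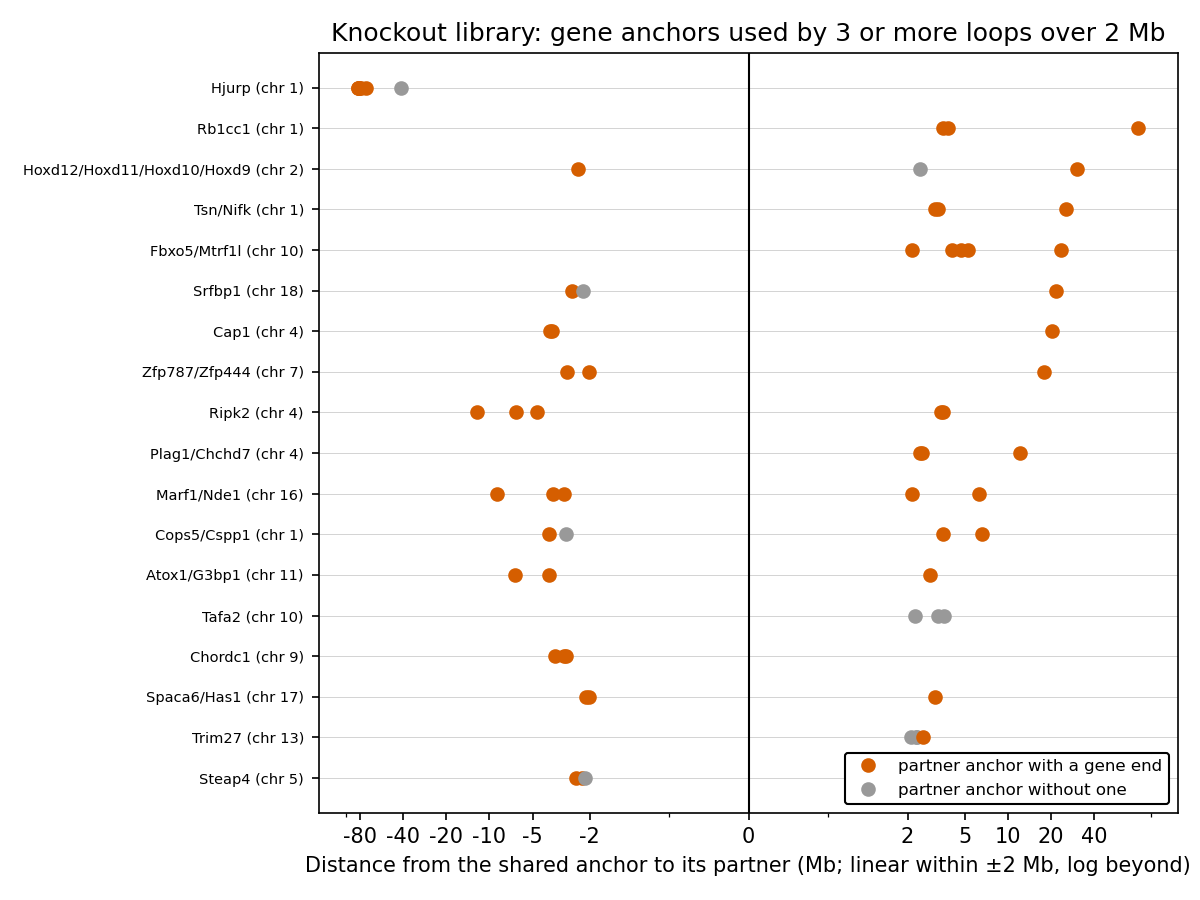
Distance in Mb (log scale beyond 2 Mb on either side) from each gene anchor used by 3 or more loops over 2 Mb in the knockout to its partner anchors, which lie at lower (negative) or higher positions on the chromosome; orange partners hold a gene end and grey ones do not. The Hjurp partners lie 41.425 to 83.49 Mb away on 1 side, while those of Ripk2 and Marf1 lie on both sides within 12.225 Mb.

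In the wild-type libraries the shared anchors were of another kind. The most used of vehicle replicate 2, chr8:6570001-6580000, holds no gene end and had 4 loops of 2.09 to 2.6 Mb, 1 of them to Efnb2, an ephrin gene. It was shared in all 4 libraries. The joined anchors at Slitrk3, Tafa2 and Pcdh10, a protocadherin gene, were used by 3 loops each in vehicle replicate 2, and of these 9 loops only that from Tafa2 to Atp23 had a gene end at the far anchor. Igf2bp3 had 3, to Hoxa13, to Skap2 and to a bin within 10 kb of Skap2. Chordc1, the gene of a cochaperone of Hsp90, was joined to 3 gene anchors after progesterone and in the knockout.

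Most genes at long anchors were there in a single library. A total of 609 protein-coding genes lay at a long anchor in some library, 452 of them in 1 library, 84 in 2, 55 in 3 and 18 in 4. Esr1 and Pgr, the genes of the estrogen and progesterone receptors, had no long loop in any library, also within 10 kb of an anchor. No gene of the Hoxb and Hoxc clusters lay at a long anchor. Hoxa13 had 1 long loop in each library, and Hoxd13 had 1 in vehicle replicate 2, progesterone and the knockout. Hoxa9 to Hoxa11 had 2 and Hoxd9 to Hoxd12 had 3 long loops in the knockout and 0 elsewhere. Within 10 kb of an anchor, Hoxa10 and Hoxa11 had 1, 1, 1 and 3 long loops and Hoxd10 to Hoxd12 had 1, 0, 1 and 4.

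Of 38 genes of uterine patterning, 2, 1, 2 and 11 lay at long anchors, all 11 of the knockout being Hox genes, Meis2 and Wt1, and neighbours in a cluster share a bin. Of 39 early estrogen genes, 2, 1, 0 and 3 did. Of these, Sox4 lay at a loop of 3.02 Mb in the same bins in vehicle replicate 2 and the knockout. Nrip1, the gene of a coregulator of nuclear receptors, was joined to Gbe1 over 6.05 Mb in the knockout only, and Nr4a2 to Mbd5 over 8.175 Mb in vehicle replicate 2 only. Of 32 progesterone response genes, 1, 0, 1 and 4 did, among them Cited2, a transcriptional coregulator gene, at a loop of 2.42 Mb with the same bins in vehicle replicate 2, progesterone and the knockout. Of 12 stromal markers, Hand2, Hoxa10 and Hoxa11 lay at long anchors, in the knockout only, whereas 9 to 12 of the 12 lay at an anchor of some loop. None of the smooth muscle, epithelial, endothelial, immune, neuronal or hepatocyte markers (8, 9, 7, 7, 4 and 3 genes) lay at a long anchor in any library. Loop lists do not measure expression, so these markers do not test the tissue label. Over all autosomal genes 0.929, 0.315, 0.639 and 2.26% lay at a long anchor, and each count above rests on a few loops.

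The promoters of genes at long and at shorter gene-to-gene loops had median CpG counts within 1 of each other. The median count in 250 bases was 14 for long and 14 for shorter loops in vehicle replicate 3, 14 and 15 after progesterone, and 16 and 16 in the knockout. For vehicle replicate 2 the comparison is left out. A promoter sequence was at hand for 77.3% of its long-loop genes, below the minimum coverage set, and for 80.2% of its shorter-loop genes. Of 2 motifs searched on both strands, which do not overlap in letters, the GC box GGGCGG was in 51.2, 50 and 57.8% of long-loop promoters in vehicle replicate 3, progesterone and the knockout, and in 54.0, 56.6 and 59.2% of shorter-loop promoters. The ETS core CCGGAAG was in 9.30, 16.7 and 17.5%, with 12.3, 13.8 and 14.8% for shorter loops. Over all 16457 promoters, which cover 79.6% of autosomal genes, these motifs were in 43.6 and 9.39%. These windows are not whole anchors, and a match is a run of letters, not a bound site.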

How the data were processed

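The deposited file of each library lists loops as 6 columns of positions (chromosome, start and end of both anchors), in bases on mm10 and with no other unit, per the submitters' processing notes, which name Juicer 1.5.6. Not given in the sources used here are the loop caller, its thresholds, filters and any pooling, and no contact count or depth was used. The lists hold anchors of 5, 10 and 25 kb, starts were deposited counting from 0 and are given counting from 1, and loops of the X chromosome were left out. The estradiol group that the series describes was not analysed here. The loops and gene lists were chosen with earlier results of these data known.

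Gene positions, without strand, were those of RefSeq on GRCm38.p6 (20665 autosomal protein-coding genes). A gene was at an anchor when its start or end lay inside. Promoters came from RefSeq on the same assembly. Loops of different lists matched when anchors overlapped after 10 kb was added to each side. The library was the unit of the exact sign-flip permutation test, and p-values measure only the spread between these libraries, which may be technical.

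Genes were named by rule: links found in 2 or more libraries, gene-to-gene loops called in all 4, the most shared anchors, the longest loops, loops at uterine list genes found in 2 or more libraries, the Hox clusters, Esr1 and Pgr. Links, loops and genes of 1 library, single-anchor genes and tRNA and histone loops were named after their values were seen. Some loops that the rule names are not reported here. Tested on simulated data from the 16062 loops of vehicle replicate 2, the matching step recovered 100% of loops shifted by at most 5 kb and 1.69% of loops moved away, and the placing step put 100% of 2000 genes in their bins. Alternatives changed the length threshold, the bases added, the gene rule, the anchor size and the joining of loops. Computation used Python 3.11.15, numpy 2.4.6, pandas 2.3.3, scipy 1.17.1 and matplotlib 3.10.9.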

Additional observations from a re-analysis of the deposited data

Results flagged for a closer look

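Loops over 2 Mb on the X chromosome stood outside the autosomal comparisons and were listed in every library, 3 and 1 for vehicle replicates 2 and 3, 3 for progesterone and 8 for the knockout, of 325, 185, 255 and 541 X loops. Kdm6a, a histone demethylase gene, was joined to Firre, a long noncoding RNA gene, over 32.45 Mb after progesterone and in the knockout. A loop of 71.575 Mb between bins without a protein-coding gene end was in vehicle replicate 2 and progesterone. A loop of 2.8 Mb to Gria3, a glutamate receptor gene, was in both vehicle libraries and the knockout. The knockout alone listed 5 of its 8, among them Ddx3x to Kdm6a over 4.88 Mb.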

How the results depend on the processing

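Of 121 recomputed values, 77 kept their direction and stayed within the set range, 43 moved and 1 reversed; libraries are in the order vehicle replicate 2, vehicle replicate 3, progesterone and knockout. With other length thresholds, long loops numbered 383, 168, 258 and 527 at 1.5 Mb and 71, 21, 47 and 145 at 3 Mb, and at 3 Mb the shares found again were 63.4% (vehicle replicate 2), 70.2% (progesterone) and 26.2% (knockout), the loops of vehicle replicate 3 called everywhere numbered 10 in place of 38, the gene-to-gene shares were 54.9, 38.1, 40.4 and 76.6%, shared anchors numbered 12, 2, 8 and 38, and the housekeeping link of vehicle replicate 2 was lost (0). With identical bins only, shared anchors numbered 24, 6 and 17 in the wild-type libraries. With 0 kb added, 69.8% of progesterone loops were found again. The mean excess of gene-to-gene loops reversed to -2.77 points with gene bodies and ranged from 14.2 to 23.6 points with 1 library left out; with gene bodies the knockout share was 64.1%. Within 10 kb of gene ends the progesterone share was 34.1% and the knockout had 2 housekeeping links. Without 25 kb anchors the gene-to-gene shares were 11.5, 0, 9.09 and 34.6%. Loops called in all remaining libraries numbered 40 to 69 with 1 library left out, the highest without vehicle replicate 3, the shortest list. The settings that follow, and the mean excess with 1 library left out, were chosen after seeing the data. With 25 kb anchors only, gene-to-gene shares were 51.1% (vehicle replicate 2) and 71.6% (knockout), and 59.6 and 29.5% of loops were found again. Over 10 Mb the gene-to-gene shares were 61.5, 50, 55.6 and 90.9%, and without loops found in no other list they were 25% (vehicle replicate 2) and 28% (knockout). No paired analysis was possible because the groups share fewer than 2 replicate numbers and progesterone and the knockout have 1 library each. The cause of these moves was not tested. Unknown depth limits every statement on loops that a list lacks.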
